A study of Mus musculus with 5 samples.

Results

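The contacts described here join a captured gene promoter to a stretch of chromatin that holds no captured promoter, and they were called in pre-granulosa cells but scored low in Sertoli cells. They were chosen by their scores in the table with the extended baits. A contact entered if both ends lay on the same chromosome, the bait lay on chromosomes 1 to 9, the other end carried no bait name, pre-granulosa cells scored at least 5, and Sertoli cells scored above 0 and below 2. The rule left 1346 contacts of 22878 listed contacts of this kind (5.88%), in a table that held 51777 contacts in all. They were 12.2% of the 11049 contacts of this kind that reached 5 in pre-granulosa cells. The 1346 contacts came from 1147 baits, which carried the names of 1147 genes, and from 1321 bins.

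The study mapped promoter contacts by capture Hi-C in mouse gonads at E13.5, in the supporting cells of each sex. The Sertoli libraries numbered 3 and came from gonads that carried Sox9IRES-GFP, a GFP reporter at Sox9. The pre-granulosa libraries, whose cell type the labels give as Granulosa, numbered 2 and came from gonads that carried Enh8-mCherry. Each library was made from about 100000 cells sorted on the reporter and digested with DpnII, so each group is the reporter-positive cells of its line and no other treatment is named.

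Pre-granulosa cells are the supporting cells of the fetal ovary and Sertoli cells those of the fetal testis, and both arise from a common precursor in the early gonad. WNT signalling through beta-catenin and the forkhead factor FOXL2 maintain the ovarian fate, while SOX9 drives the testicular one. Enhancers that lie far from a gene can act on it when chromatin folding brings them close to its promoter, and capture Hi-C records such proximity as ligated fragments. A contact is a measure of proximity and not of gene activity.

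Each cell type had 1 score column for all its libraries, so no value below has a replicate error and no test between the cell types was possible. Every difference compares a pool of 3 libraries with a pool of 2, and their depth is unknown. Sertoli calls were also more frequent than pre-granulosa calls among the listed contacts, 17868 against 11049. The mirrored rule, at least 5 in Sertoli cells and above 0 but below 2 in pre-granulosa cells, gave 4331 Sertoli-only contacts, 18.9% of the listed contacts and 24.2% of the Sertoli calls. Contacts that reached 5 in both cell types are called shared and numbered 6039. Intervals cover counting error only, and the spread between libraries or animals is not in these scores. Contacts are not expression, so the cell type labels could not be checked against marker genes.

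The baits are the fixed ends of these contacts, and the promoter sequences of some that carry the results are shown first. They were taken from the RefSeq annotation of GRCm38.p6 and run from 250 bases before to 50 bases after the start of a transcript. Of the 1147 baits, 696 (60.7%) held such a start of their own gene. Capitals mark matches to the searched motifs of gonadal and WNT factors, and windows without capitals held none of them. The Lef1 window, chr3:131112541-131112840 on the plus strand, belongs to the pre-granulosa gene with a contact of this kind. The Cav1 window, chr6:17306085-17306384 on the plus strand, and the Klhl5 window, chr5:65107318-65107617 on the plus strand, belong to baits with many such contacts. The 4930558K02Rik window, chr1:161979587-161979886 on the minus strand, holds a SOX match, and the Pomt1 window, chr2:32236390-32236689 on the plus strand, a TCF/LEF match. Both belong to contacts among the 10 highest scores. The Tmx4 window, chr2:134644072-134644371 on the minus strand, holds a GATA match and belongs to a contact over a long distance.
Lef1: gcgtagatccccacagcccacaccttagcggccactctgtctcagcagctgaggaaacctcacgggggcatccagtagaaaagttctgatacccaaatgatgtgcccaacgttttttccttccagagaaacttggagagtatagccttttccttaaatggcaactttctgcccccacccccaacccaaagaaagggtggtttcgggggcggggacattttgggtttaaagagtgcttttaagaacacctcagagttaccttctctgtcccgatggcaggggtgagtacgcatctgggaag
Cav1: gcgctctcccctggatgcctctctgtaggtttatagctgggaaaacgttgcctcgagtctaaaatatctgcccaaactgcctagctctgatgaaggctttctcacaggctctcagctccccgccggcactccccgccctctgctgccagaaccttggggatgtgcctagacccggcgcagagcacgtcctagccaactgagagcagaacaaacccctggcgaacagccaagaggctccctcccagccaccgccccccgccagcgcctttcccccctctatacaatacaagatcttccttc
Klhl5: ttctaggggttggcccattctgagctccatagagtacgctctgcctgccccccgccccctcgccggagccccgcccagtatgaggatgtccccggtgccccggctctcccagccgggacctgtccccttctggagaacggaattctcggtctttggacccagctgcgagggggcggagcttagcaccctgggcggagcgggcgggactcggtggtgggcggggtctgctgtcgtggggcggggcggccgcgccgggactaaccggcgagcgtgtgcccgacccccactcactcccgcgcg
4930558K02Rik: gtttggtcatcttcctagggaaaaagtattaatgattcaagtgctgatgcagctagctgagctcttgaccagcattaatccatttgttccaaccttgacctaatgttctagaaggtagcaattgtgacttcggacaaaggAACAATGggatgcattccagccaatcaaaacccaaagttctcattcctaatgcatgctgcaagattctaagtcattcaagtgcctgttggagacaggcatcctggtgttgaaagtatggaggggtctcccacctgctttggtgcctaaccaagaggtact
Pomt1: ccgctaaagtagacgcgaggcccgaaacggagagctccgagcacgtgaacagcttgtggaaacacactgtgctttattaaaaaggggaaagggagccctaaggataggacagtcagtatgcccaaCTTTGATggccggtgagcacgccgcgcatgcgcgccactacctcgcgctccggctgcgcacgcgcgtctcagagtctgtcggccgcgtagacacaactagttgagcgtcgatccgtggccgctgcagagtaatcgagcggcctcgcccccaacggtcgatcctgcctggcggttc
Tmx4: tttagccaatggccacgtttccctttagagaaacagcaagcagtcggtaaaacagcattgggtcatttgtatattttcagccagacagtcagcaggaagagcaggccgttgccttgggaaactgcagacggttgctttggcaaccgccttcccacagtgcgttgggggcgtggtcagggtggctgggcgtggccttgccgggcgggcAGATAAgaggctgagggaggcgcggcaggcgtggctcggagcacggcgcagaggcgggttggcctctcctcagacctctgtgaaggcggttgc

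Most contacted bins hold no annotated start, so the far ends have few promoter sequences to show. A pair of them was picked after their values were seen. The bin contacted by Igf2, a fetal growth factor, holds the start of the noncoding transcript Nctc1, at chr7:142558549-142558848 on the minus strand. The bin contacted by Arfgef2, which encodes an exchange factor for ARF GTPases, holds the start of Gm31204, at chr2:166904688-166904987 on the minus strand. The Gm31204 window holds, in order, a SOX, a CTCF and a RUNX match, and the Nctc1 window holds none of the searched motifs.
Nctc1: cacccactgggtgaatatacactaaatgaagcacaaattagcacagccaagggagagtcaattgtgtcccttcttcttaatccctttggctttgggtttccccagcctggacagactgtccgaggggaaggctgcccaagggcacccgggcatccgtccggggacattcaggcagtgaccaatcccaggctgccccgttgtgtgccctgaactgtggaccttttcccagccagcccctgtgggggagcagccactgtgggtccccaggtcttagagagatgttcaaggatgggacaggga
Gm31204: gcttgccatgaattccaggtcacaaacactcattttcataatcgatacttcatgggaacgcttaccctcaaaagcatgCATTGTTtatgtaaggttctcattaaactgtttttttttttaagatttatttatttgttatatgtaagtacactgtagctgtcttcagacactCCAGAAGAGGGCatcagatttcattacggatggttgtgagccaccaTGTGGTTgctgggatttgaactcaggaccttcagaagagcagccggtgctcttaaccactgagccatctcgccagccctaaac

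Most of the 1346 contacts lay close to the threshold that chose them. Their pre-granulosa scores ran from 5.001 to 15.4, with a median of 5.69 and quartiles of 5.28 and 6.48. A score of at least 7 was reached by 210 of them. Their Sertoli scores ran from 0.00494 to 1.999, with a median of 1.30 and quartiles of 0.814 and 1.66. These scores chose the contacts and are given as a description. Just inside the pre-granulosa threshold lay a contact of Srgap2 at 5.00088, one of Icam4 and Icam5 at 5.00098 and one of Susd4 at 5.00236. No contact with both scores under the limits is listed, so none lies just outside on that side. Just inside the Sertoli limit lay Muc2 at 1.997, Lmntd2 and Rassf7 at 1.999 and Kat14 at 1.999. Just outside it lay Zfp141 at 2.002, Aplf at 2.004 and Zfp982 at 2.004.

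**Figure D1:**
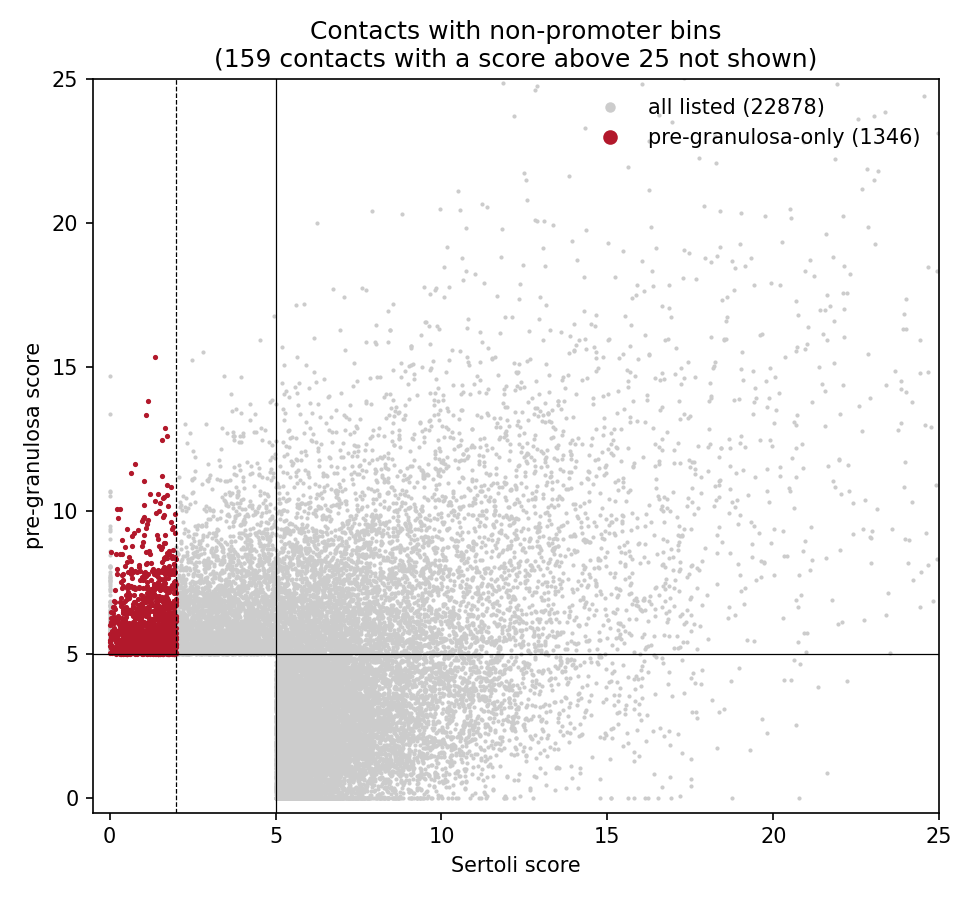
Each point is a listed contact with a non-promoter bin, placed by its Sertoli score (horizontal axis) and its pre-granulosa score (vertical axis), both without a unit. The 1346 pre-granulosa-only contacts (dark red) fill the block above 5 and between 0 and 2, with most points near the lower edge. Solid lines mark a score of 5, the dashed line a Sertoli score of 2, and 159 contacts with a score above 25 are not shown.

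The 10 highest scores came from 9 baits, of which the Cspp1 bait, named for a centrosome and spindle pole protein, held a pair. In all distances a minus sign marks a bin at lower coordinates than the bait. The Cspp1 bait on chromosome 1 (10035696 to 10040844) contacted a bin at 9778266 to 9783319, -257 kb away over the predicted gene Gm39590, scoring 15.4 in the pre-granulosa pool and 1.36 in the Sertoli pool. It contacted a further bin at 9799276 to 9804404, -236 kb away in Sgk3, which encodes a kinase, with scores of 12.9 and 1.66. Only the second of them was listed with the original baits, with scores of 5.87 and 0.908 in the same order. The bin at 9773078 to 9778265 beside the first scored 13.3 in pre-granulosa cells and is listed at 0 in Sertoli cells, and the rule left it out for that zero.

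The bait of Spsb1, a SOCS-box adaptor of ubiquitin ligases, contacted an intergenic bin on chromosome 4 (149800257 to 149805276), -141 kb away, with scores of 13.8 in pre-granulosa and 1.15 in Sertoli cells. With the original bait these scores were 10.2 and 3.71, still apart across the threshold of 5. A neighbouring bait of Spsb1 contacted the same bin at -151 kb with 12.04 and 12.4, so the bin was a shared contact of the gene through that bait. The 4930558K02Rik bait, whose promoter window with the SOX match is shown above, contacted a bin 325 kb away in Dnm3, a dynamin gene, with scores of 13.3 and 1.09. With the original bait this contact scored 9.02 and 8.43, so it was called in both cell types. For Armc9, a gene of the primary cilium, a bin 162 kb away in the nucleolin gene Ncl scored 12.6 against 1.73, and 12.9 against 2.83 with the original bait. For Tut4, an RNA uridylyltransferase, a bin -27.0 kb away within the gene itself scored 12.5 against 1.57, and 12.01 against 1.75 with the original bait. Tut4 and Armc9 thus stayed under 5 in Sertoli cells with both bait designs, and 4930558K02Rik did not. A second bait of Armc9 contacted the same bin with 5.77 and is listed at 0 in Sertoli cells.

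The bins of the remaining contacts among the 10 highest scores lay in genes, either that of the bait or another. Pomt1, a protein O-mannosyltransferase, contacted a bin -62.7 kb away in Prrc2b with 11.6 in pre-granulosa and 0.750 in Sertoli cells. A pair of Prrc2b baits contacted that bin with Sertoli scores of 6.70 and 6.02. Scn10a, a voltage-gated sodium channel, contacted a bin -58.7 kb away in its own gene with 11.3 and 0.639. Il1rl2, an interleukin receptor, contacted a bin 10.1 kb away in its own gene with 11.2 and 1.58. This bait had no Sertoli call on its chromosome. P3h3, a collagen prolyl hydroxylase, contacted a bin 227 kb away in the lysophosphatidic acid receptor gene Lpar5 with 11.03 and 1.02. The same bin was a shared contact of Acrbp, with 11.4 and 27.1, and of Ing4, with 10.5 and 9.70. In all, 3 of the 10 bins (Spsb1, Pomt1 and P3h3) were called in Sertoli cells with another bait. Of the 10 contacts, 8 lay at 50 kb or more, 7 were listed with the original baits and 6 reached 5 there in pre-granulosa cells while staying under 5 in the Sertoli column.

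Pre-granulosa-only contacts spanned longer distances than shared contacts and about the same as Sertoli-only contacts. Their median distance was 61.5 kb (95% interval 57.5 to 66.7 kb, n = 1346), with quartiles of 26.1 and 118 kb. The median was 64.1 kb for Sertoli-only contacts, 27.3 kb for shared contacts and 44.1 kb for all listed contacts. At 100 kb or more lay 431 of the 1346 (32.0%, 95% Wilson interval 29.6% to 34.6%), against 29.9% of Sertoli-only and 17.0% of shared contacts. Under 20 kb lay 245 (18.2%), against 12.8% of Sertoli-only and 39.6% of shared contacts. Read as a share of all pre-granulosa calls, the pre-granulosa-only contacts made up 6.45% under 20 kb, 11.8% from 20 to 50 kb and 15.5% from 50 to 100 kb. The share was 19.6% from 100 to 200 kb, 21.2% from 200 to 300 kb and 11.5% beyond 300 kb, where 27 contacts lay. The Sertoli-only share of Sertoli calls took the values 11.6%, 25.1%, 31.2%, 32.6%, 27.8% and 20.9% in the same bands. Both shares were lowest under 20 kb. The rule leaves out contacts listed at 0 in the other cell type, but they remain in the denominators. With these zeros included, an alternative chosen after seeing the data, the pre-granulosa-only share was 22.6% from 100 to 200 kb, 30.9% from 200 to 300 kb and 35.5% beyond 300 kb, or 83 of 234 calls. The Sertoli-only share was then 42.1%, 46.8% and 48.6% in these bands. The lower shares beyond 300 kb were thus seen under the rule as given and not with the zeros counted.

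**Figure D2:**
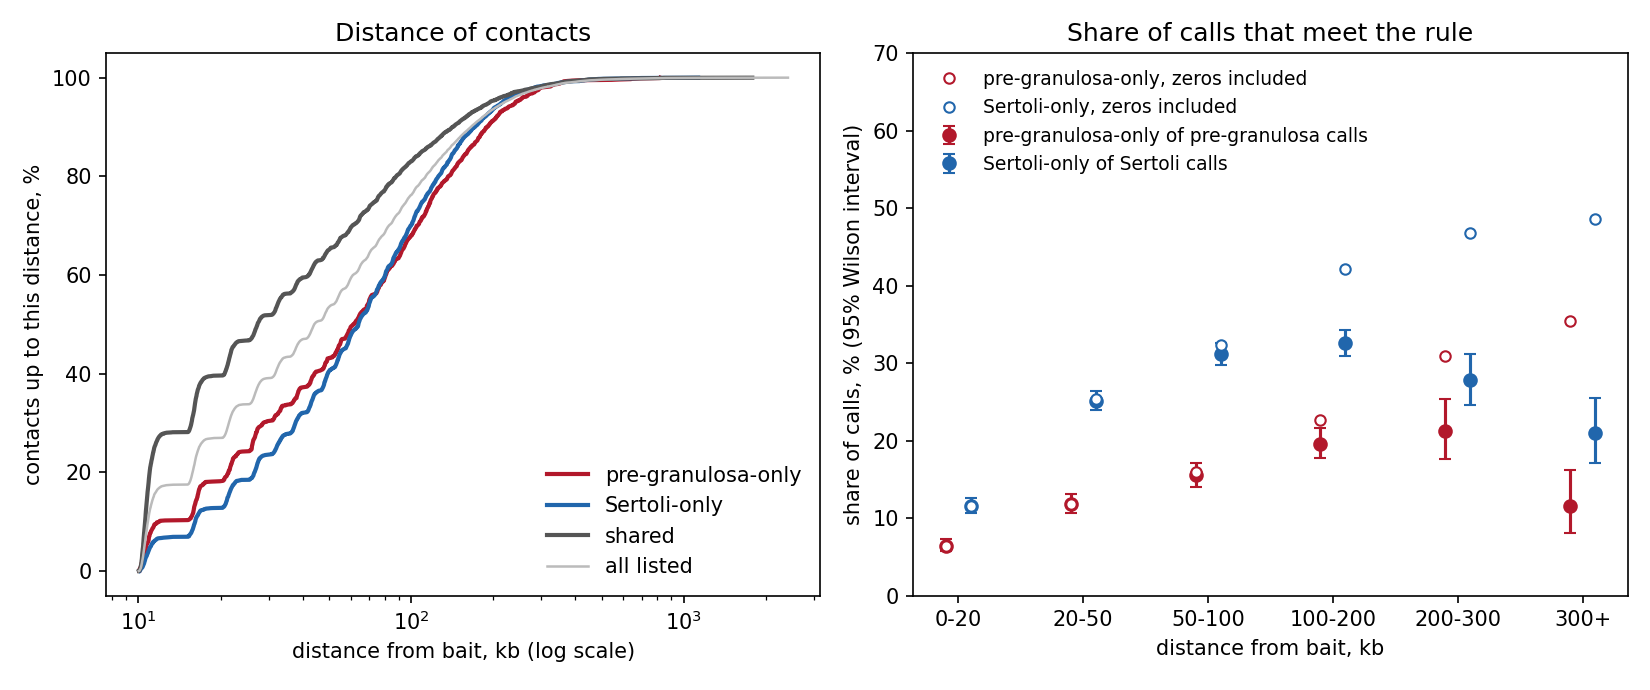
The left panel gives the percentage of contacts (vertical axis) up to each distance from the bait in kb (log axis) for the 1346 pre-granulosa-only, 4331 Sertoli-only, 6039 shared and all 22878 listed contacts. The right panel gives, per distance band in kb, the percentage of calls of a cell type that meet its rule, with 95% Wilson intervals (filled), and the same with contacts listed at 0 included (open). Beyond 300 kb the filled points lie at 11.5% and 20.9% and the open ones at 35.5% and 48.6%. The curves of the pre-granulosa-only and Sertoli-only contacts run close together, with medians of 61.5 and 64.1 kb, and both lie right of the shared contacts at 27.3 kb.

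Of the 5 longest contacts, 4 ended between genes. Asb4, which encodes an ankyrin and SOCS-box protein, contacted an intergenic bin -820 kb away with scores of 6.13 in pre-granulosa and 0.248 in Sertoli cells. A bait named for the transcription factor gene Sox6 and for 1110004F10Rik contacted an intergenic bin -819 kb away with 6.25 and 1.67. Tmx4, a thioredoxin-related membrane protein whose window with the GATA match is shown above, contacted a bin 689 kb away in the phospholipase gene Plcb1 with 10.05 and 0.225. The Tmx4 contact was also seen with the original bait, at 9.75 and 1.04, and its bait had no Sertoli call. Aim2, a sensor of cytosolic DNA, contacted an intergenic bin 645 kb away with 5.58 and 0.626. The far bins of Sox6 and Aim2 each touched a bin called in Sertoli cells with the same bait. Nkx3-2, a homeobox gene of the skeleton, contacted an intergenic bin -640 kb away with 5.09 and 0.460. Tmx4 was the one of these 5 contacts with a pre-granulosa score above 7.

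Pre-granulosa-only contacts were mostly isolated bins. Only 39 of the 1346 (2.90%, 95% Wilson interval 2.13% to 3.94%) touched another bin of the set from the same bait, against 10.4% of Sertoli-only and 36.2% of shared contacts. The larger sets hold more bins that could touch. The share depended on the score limits, and each setting counted touching only among its own contacts. It was 0.873% for Sertoli scores below 1 and 5.45% below 3. Among the 210 contacts with a pre-granulosa score of at least 7 it was 0%, which allows up to 1.80%, so none of them touched each other. Contacts of at least 7 did touch lower ones of the set, as in the run of Atp6v1f below. Touching bins formed 19 runs, the longest of 3 bins, and merging them left 1326 regions. The run of 3 belonged to the bait of Atp6v1f, a subunit of the vacuolar proton pump, on chromosome 6 at 29508132 to 29524614, over the predicted gene Gm26627. Its bins scored 5.77, 9.63 and 5.98 in pre-granulosa cells and 1.95, 0.977 and 0.830 in Sertoli cells, so the middle bin was the highest. With the original bait only the middle bin was listed, at 6.78 and 1.26. The bin beyond it was a shared contact of the neighbouring gene Irf5, with 10.6 and 6.85.

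The other 18 runs had 2 bins each, and the 4 with the highest summed pre-granulosa scores are named. The bait of Wfs1, an endoplasmic reticulum membrane protein, held a run at 36945838 to 36956817 on chromosome 5 in Ppp2r2c, a phosphatase subunit gene. Its bins scored 8.75 and 6.07 in pre-granulosa cells against 1.58 and 1.66 in Sertoli cells. With the original bait they scored 8.64 and 6.02 against 1.57 and 1.57, close to the values above, and the bait had no Sertoli call. The first of these bins was called in Sertoli cells with a bait of Jakmip1, at 5.36. The bait of Cpa4, a carboxypeptidase, held a run at 30588201 to 30598911 on chromosome 6, the first bin in its own gene and the second in the predicted gene Gm31453, with 9.54 and 5.45 against 1.14 and 0.475. The first of them was a shared contact of Cpa5, with 13.4 and 8.73. Both bins overlapped 1 bin of the original table, which scored 8.57 and 1.54. The runs of Cav1 and Klhl5 are described with their baits.

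Other calls of the same bait were common around these bins, in both cell types. Of the 1346 contacts, 1119 (83.1%) had a bait with a Sertoli call elsewhere on its chromosome, promoter bins included, against 95.4% for Sertoli-only contacts having another one. The nearest bin called in Sertoli cells lay at a median of 22.4 kb (95% interval 21.4 to 26.6 kb, n = 1119). The bin touched a Sertoli-called bin of its bait in 257 contacts (19.1%), against 44.7% of Sertoli-only and 70.2% of shared contacts. It touched a further pre-granulosa-called bin in 281 contacts (20.9%), against 23.4% and 59.5%. In 366 contacts (27.2%) the bin itself was called in Sertoli cells with another bait, against 42.7% and 48.7%. In 88 contacts (6.54%) that other bait carried the name of the same gene. For Sertoli-only contacts the Sertoli calls are those of their own cell type, so these shares are not mirrored. The mirrored shares of Sertoli-only contacts were 89.0% for a bait with another pre-granulosa call and 23.4% for touching a pre-granulosa-called bin. The mirrored share for a bin called with another bait was not computed. The remaining 227 contacts, from 202 baits, had a bait without any Sertoli call on its chromosome. For 103 of those baits the contact was the only one listed.

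**Figure D3:**
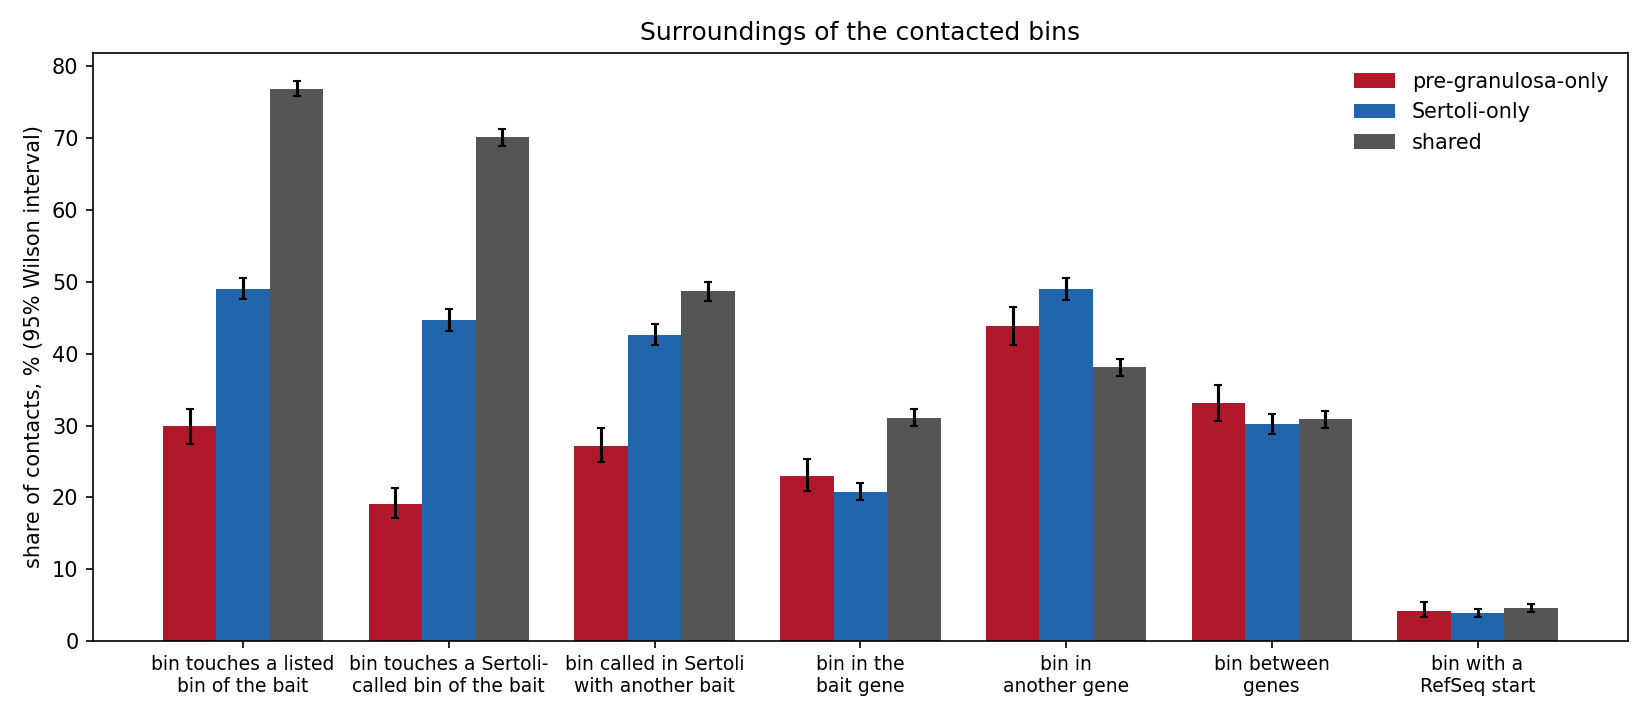
Bars give the percentage of the 1346 pre-granulosa-only, 4331 Sertoli-only and 6039 shared contacts (vertical axis) whose bin has the property named below the bars, with 95% Wilson intervals. Pre-granulosa-only bins were lowest in touching a listed bin of their bait (29.9% against 49.1% and 76.9%), while the shares in genes and at RefSeq starts lay closer together.

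A bait seldom held more than 1 contact of this kind. Of the 1147 baits, 982 held 1, 140 held 2, 18 held 3, 5 held 4 and 2 held 5. The baits with 5 are described, and of those with 4 the 3 with the highest summed scores. Of the same baits, 364 (31.7%) also held a Sertoli-only contact, against 2267 of the other 4787 listed baits (47.4%). A shared contact was held by 42.4% of them and by 42.3% of the other baits. A bait is listed only if a contact of it reached 5, and the other baits had to do so through a different call. For 103 of the 1147 baits the pre-granulosa-only contact was the only one listed. Both comparisons are thus partly fixed by the rule and are given as a description.

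The Cspp1 bait held 5, within a crowded region of 21 listed contacts, of which 11 were called in Sertoli cells and 5 were shared. Between -279 and -236 kb it held 4 of its pre-granulosa-only contacts, scoring 5.82, 5.58, 15.4 and 12.9 against 0.209, 1.19, 1.36 and 1.66 in Sertoli cells. The other, 112 kb away in the exchange factor gene Arfgef1, scored 5.48 and 1.91. The lower scores in the first group lay over 1700034P13Rik. The other 3 listed bins in this stretch also reached 5 in pre-granulosa and stayed under 5 in Sertoli cells. The nearest Sertoli calls of the bait were at -295 kb, scoring 6.11, and at -195 kb, scoring 6.10, so they flanked this group.

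The bait Klhl5-204, named for a kelch-like gene, held 5 on chromosome 5, among 11 listed contacts with 3 Sertoli calls and 1 shared contact. A bin -97.9 kb away in Fam114a1 scored 5.43 against 0.00494 in Sertoli cells, but 6.98 and 4.42 with the original bait. A bin -87.3 kb away in the same gene scored 6.83 and 1.07. A run of 2 bins at -44.1 and -38.8 kb in Tmem156 scored 7.80 and 6.06 against 1.85 and 1.14. The remaining bin, 87.3 kb away between genes, scored 5.18 and 1.25. Of the 5, 4 thus lay at lower coordinates than the bait, and 1 at higher coordinates.

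Cav1 encodes caveolin, the coat protein of caveolae, and its bait held 4 on chromosome 6. The bait was rich in pre-granulosa calls, with 12 against 3 Sertoli calls among 14 listed contacts. A bin at -170 kb scored 6.28 and 0.134, and a run of 2 bins at -155 and -149 kb scored 6.11 and 7.81 against 1.03 and 0.228. These bins lay over the predicted gene Gm4876. A bin at -16.6 kb in the neighbouring gene Cav2, which encodes another caveolin, scored 5.54 and 0.989. Beyond the group at -193 kb lay the shared contact of the bait, with 14.5 in pre-granulosa and 12.4 in Sertoli cells. The bait also held a bin at -133 kb that scored 7.51 and is listed at 0 in Sertoli cells, which the rule left out.

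Chd9, a chromatin remodeller, held 4 contacts, all within its own gene at 55.3 to 171 kb. They scored 5.22, 5.78, 6.29 and 9.13 in pre-granulosa cells, against 1.06, 0.782, 1.78 and 0.673 in Sertoli cells. Between and beyond them the same bait had 4 Sertoli calls, so both cell types had calls along the gene. The bin that scored 5.78 was a shared contact of a further Chd9 bait, with 5.67 and 7.02. Nbeal1, a neurobeachin-like gene, held 4 contacts within its own gene, from -71.4 to 27.0 kb, with pre-granulosa scores of 5.74, 8.18, 7.80 and 5.19. Their Sertoli scores were 1.198, 1.13, 1.39 and 1.86. They were all 4 of the listed non-promoter contacts of that bait, and its Sertoli calls were with promoter bins. With the original bait 3 of them were listed, at 6.56, 6.15 and 6.40 against 1.08, 1.21 and 2.72.

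**Figure D4:**
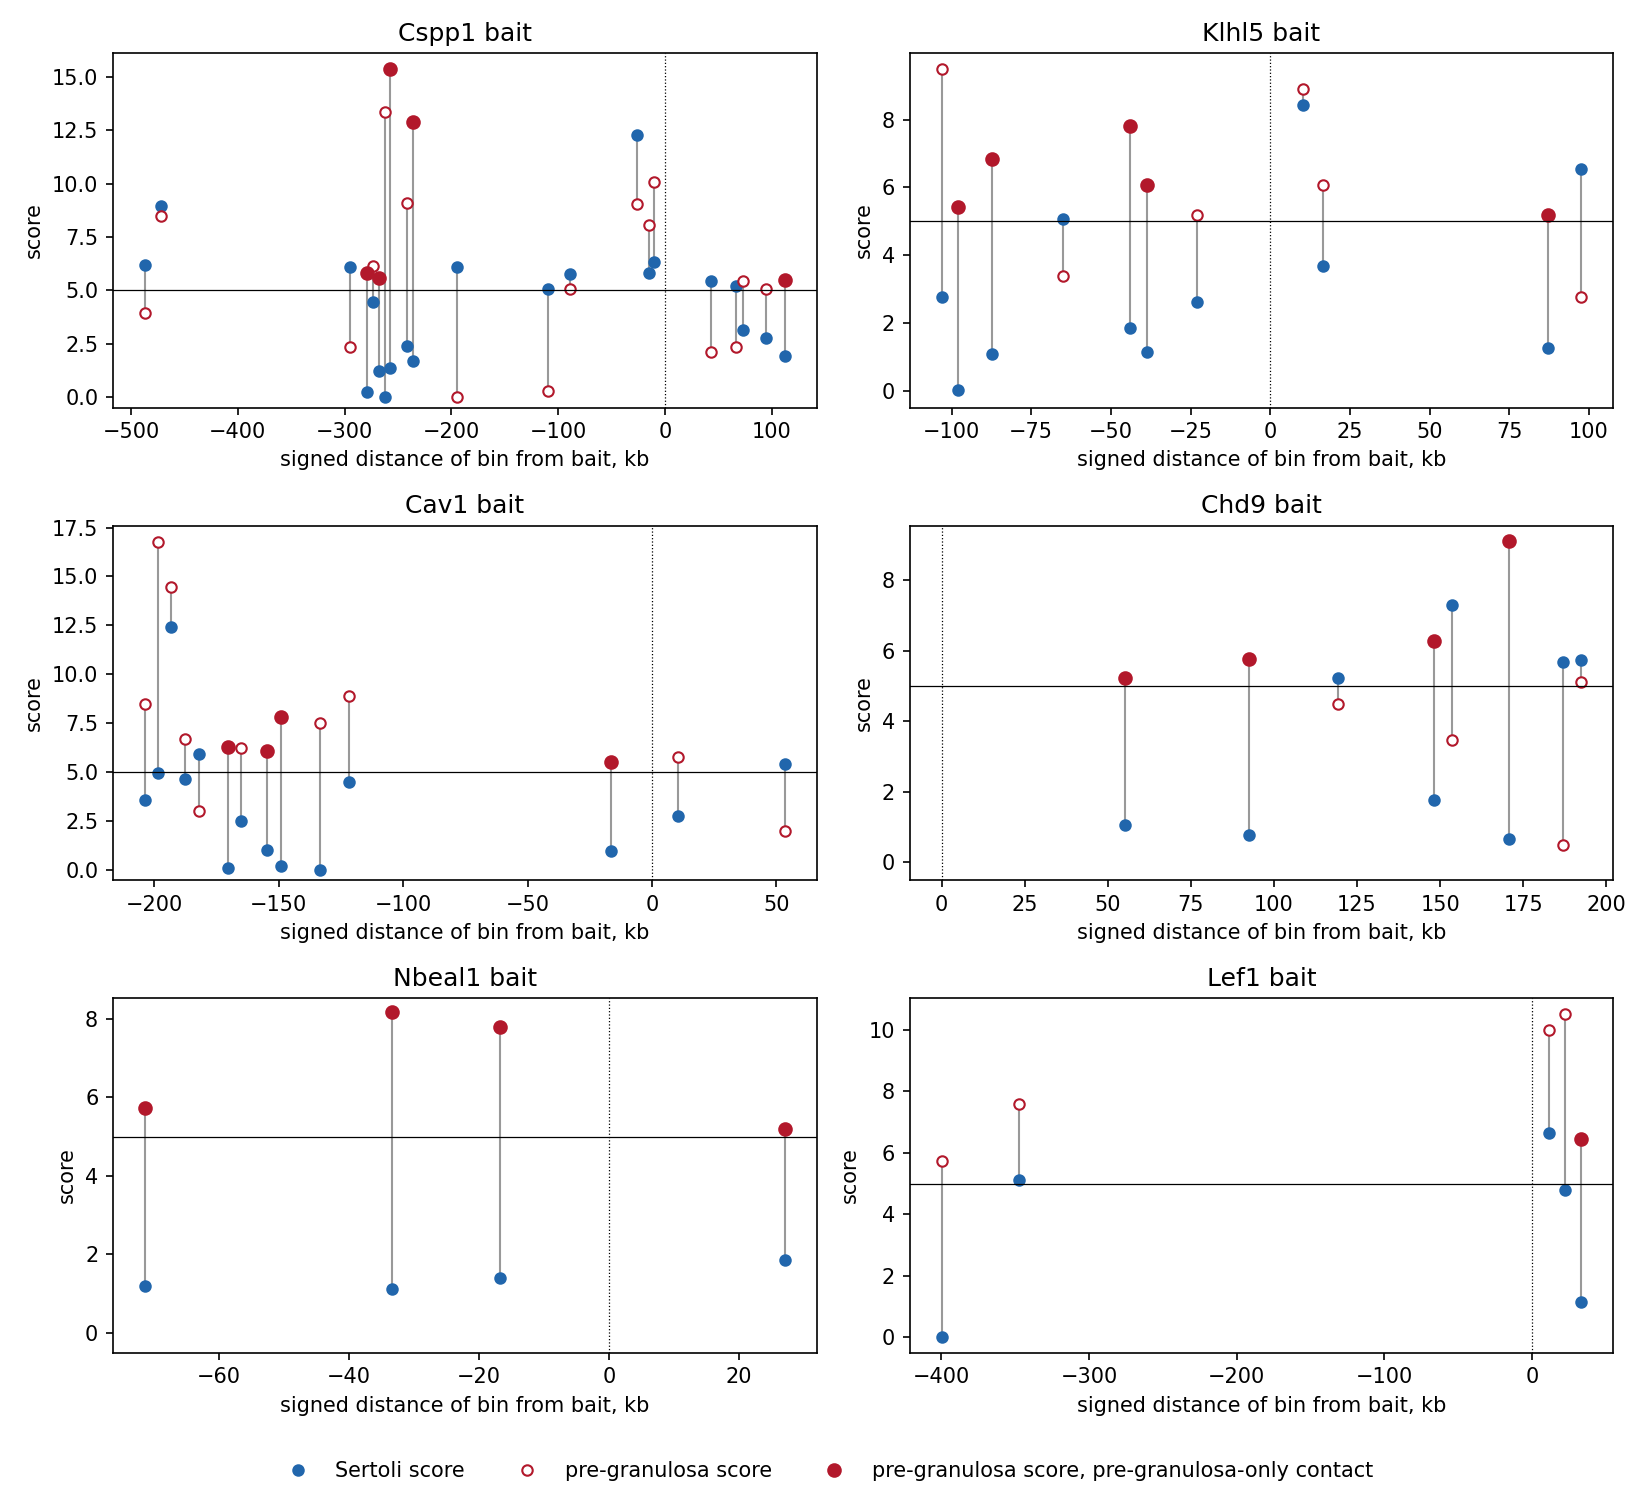
For 6 baits, every listed contact with a non-promoter bin is drawn at its signed distance from the bait in kb (horizontal axis), with the Sertoli score (blue) and the pre-granulosa score (red circles, filled where the contact is pre-granulosa-only) on the vertical axis. The solid line marks a score of 5 and the dotted line the bait. Cspp1, Klhl5 and Cav1 show groups of filled circles on the side of lower coordinates, while the 4 of Nbeal1 and the 4 of Chd9 lie within their genes.

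Genes of gonadal cell types and of signalling pathways were counted from lists. Of 382 listed genes, 138 had a bait and 94 a listed contact with a non-promoter bin, and 19 of the 94 (20.2%) had a pre-granulosa-only contact. The share over all 5075 bait genes with a listed contact was 22.6%, so the lists lay near the background. A Sertoli-only contact was held by 52 of the 94, beside 48.2% of all bait genes. Of the 19 genes, 11 also held a Sertoli-only contact. The 19 genes held 24 contacts, with pre-granulosa scores from 5.01 to 9.38 and a median distance of 77.9 kb. Of these, 9 lay in the gene of the bait, 7 in another gene and 8 between genes. With the original baits 19 of the 24 were found.

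The lists of supporting-cell genes were short, and their shares are to be read beside the 22.6% of all bait genes with a pre-granulosa-only contact and the 48.2% with a Sertoli-only one. A pre-granulosa-only contact was held by 1 of 4 pre-granulosa genes (95% Wilson interval 4.56% to 69.9%), 1 of 7 Sertoli genes (2.57% to 51.3%) and 1 of 5 genes used by both cell types (3.62% to 62.4%). A Sertoli-only contact was held by 1, 3 and 2 of them. All 3 intervals of the pre-granulosa-only shares held the background. Of the 4 pre-granulosa genes with a listed contact, Lef1 was the 1 with a pre-granulosa-only contact. LEF1 is a DNA-binding partner of beta-catenin. Its bait contacted a bin in its own gene on chromosome 3 (131143717 to 131148967), 33.6 kb away, with 6.46 against 1.16 in Sertoli cells, and with 5.63 and 1.17 with the original bait. The Lef1 bait had 5 listed contacts, all called in pre-granulosa cells, and 2 were also called in Sertoli cells. The bins at 11.7 and 22.3 kb, nearer to the start, scored 10.0003 and 10.5 against 6.65 and 4.78 in Sertoli cells. Pre-granulosa scores were higher than Sertoli scores in all 5, including a bin at -399.9 kb that is listed at 0 in Sertoli cells. Of the 7 Sertoli genes, Cldn11, a tight-junction protein of Sertoli cells, had 1, in the neighbouring gene Slc7a14 at 79.5 kb, with 5.90 and 1.28. It was the only listed non-promoter contact of that bait. Of the 5 genes used by both cell types, Igf1r, the receptor for insulin-like growth factors, had 1 within its own gene at 181 kb, with 6.72 and 1.63. The bin beside it, at 176 kb, scored 3.21 and 6.06 and was therefore called in Sertoli cells.

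WNT pathway genes had pre-granulosa-only contacts in 4 of 16, near the background of 22.6%, and Sertoli-only contacts in 11 of 16 (68.8%, 95% Wilson interval 44.4% to 85.8%), beside 48.2% of all bait genes. Lgr4, a receptor for R-spondins that enhance WNT signalling, had 2. Within its gene at 76.3 kb the scores were 6.87 and 1.77, and between genes at 278 kb they were 5.88 and 0.634. Both bins touched bins called in Sertoli cells. The neighbours of the second, at 273 and 283 kb, scored 9.92 and 10.01 in Sertoli cells, so that single bin was low between 2 high ones. Ctnnb1, which encodes beta-catenin, had a contact at -281 kb between genes, with 7.26 and 1.56, and 7.04 and 3.07 with the original bait. Its neighbour at -286 kb showed the opposite order, with 2.06 in pre-granulosa and 5.87 in Sertoli cells. Nkd1, a feedback inhibitor of WNT signalling, had a contact at -22.2 kb within the gene, with 6.33 and 0.241. That bait had no Sertoli call with a non-promoter bin. Lef1 was the fourth of these genes.

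Among TGF-beta and activin pathway genes 2 of 18 (11.1%, 95% Wilson interval 3.10% to 32.8%) had a pre-granulosa-only contact, beside 22.6% of all bait genes. A Sertoli-only contact was held by 9 of the 18 (50%), beside 48.2%. Lefty2, an antagonist of Nodal, contacted a bin at -27.5 kb in Sde2 with 6.56 and 0.960. The bait had 9 Sertoli calls among its 10 listed contacts, and this bin was the exception. Smad3, a transducer of TGF-beta and activin signals, contacted an intergenic bin at 53.1 kb with 5.47 and 0.429, and with 5.69 and 0.699 with the original bait. A further Smad3 bait had 11 Sertoli calls among its 13 listed contacts. Among retinoid genes 2 of 9 (22.2%, 95% Wilson interval 6.32% to 54.7%) had a pre-granulosa-only contact, and 5 of 9 a Sertoli-only one. Aldh1a3, an enzyme of retinoic acid synthesis, contacted an intergenic bin at 98.5 kb with 6.77 and 1.95, within the limit by a small margin. The Aldh1a3 bait had 10 Sertoli calls among 12 listed contacts.

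Among Notch and hedgehog genes 3 of 10 (30%, 95% Wilson interval 10.8% to 60.3%) had a pre-granulosa-only contact, beside 22.6% of all bait genes. A Sertoli-only contact was held by 9 of the 10 (59.6% to 98.2%), beside 48.2% of all bait genes. Maml2, a co-activator of Notch, had 2 within its own gene, with 7.52 and 1.46 at -97.0 kb and with 6.38 and 0.919 at 45.8 kb. Both were found with the original bait, at 6.41 and 5.60 in pre-granulosa cells against 1.92 and 0.120 in Sertoli cells. The bin at 45.8 kb was called in Sertoli cells with a bait of Ccdc82, at 5.11. Cdon, a hedgehog co-receptor, had 1 between genes at -99.1 kb with 6.85 and 1.16. Disp1, which releases hedgehog ligands from the cell, had 1 within its gene at 69.9 kb with 6.03 and 1.55, and no Sertoli call on its chromosome.

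Among genes of other gonadal cells, a pre-granulosa-only contact was held by 2 of 4 interstitial, 1 of 2 steroidogenic, 1 of 8 germ and 2 of 9 endothelial genes. The 95% Wilson intervals of these shares all held the 22.6% of all bait genes. A Sertoli-only contact was held by 1, 2, 5 and 2 of them in the same order, beside 48.2% of all bait genes. The highest score on any list, 9.38 against 1.11, belonged to Pdgfra, a receptor of interstitial cells, at -189 kb. It scored 9.45 and 2.15 with the original bait. The adjacent bait of Pdgfra contacted the same bin at -194 kb with 13.7 and 9.78, so the bin was called in both cell types through that bait. Cyp11a1, the enzyme that makes pregnenolone from cholesterol, had 2, with 7.27 and 1.15 at -81.2 kb and with 5.45 and 1.24 at -156 kb. The first bin was a shared contact of Ubl7, with 5.99 and 9.13, and the second of Arid3b, with 6.02 and 6.12. Nanos3, needed for the survival of primordial germ cells, had 3, scoring 6.03, 5.98 and 5.66 against 1.88, 1.88 and 1.83 in Sertoli cells. All 3 lay just below the Sertoli limit, and the bin of the second scored 8.17 in Sertoli cells with a bait named for Gm10643 and Rfx1. The endothelial genes Sox18 and Tek had 1 each, with 5.75 and 0.582 and with 5.16 and 0.547. The Sox18 bin was called in Sertoli cells with a bait of Rgs19, at 6.004. Pax8, a paired-box factor, had 1 at the threshold, with 5.01 and 1.53. Of the 6 blood genes with a listed contact 0 had one, a share with a 95% Wilson interval up to 39.03% that holds the 22.6% of all bait genes, and 2 had a Sertoli-only contact (interval 9.68% to 70.001%), beside 48.2%.

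**Figure D5:**
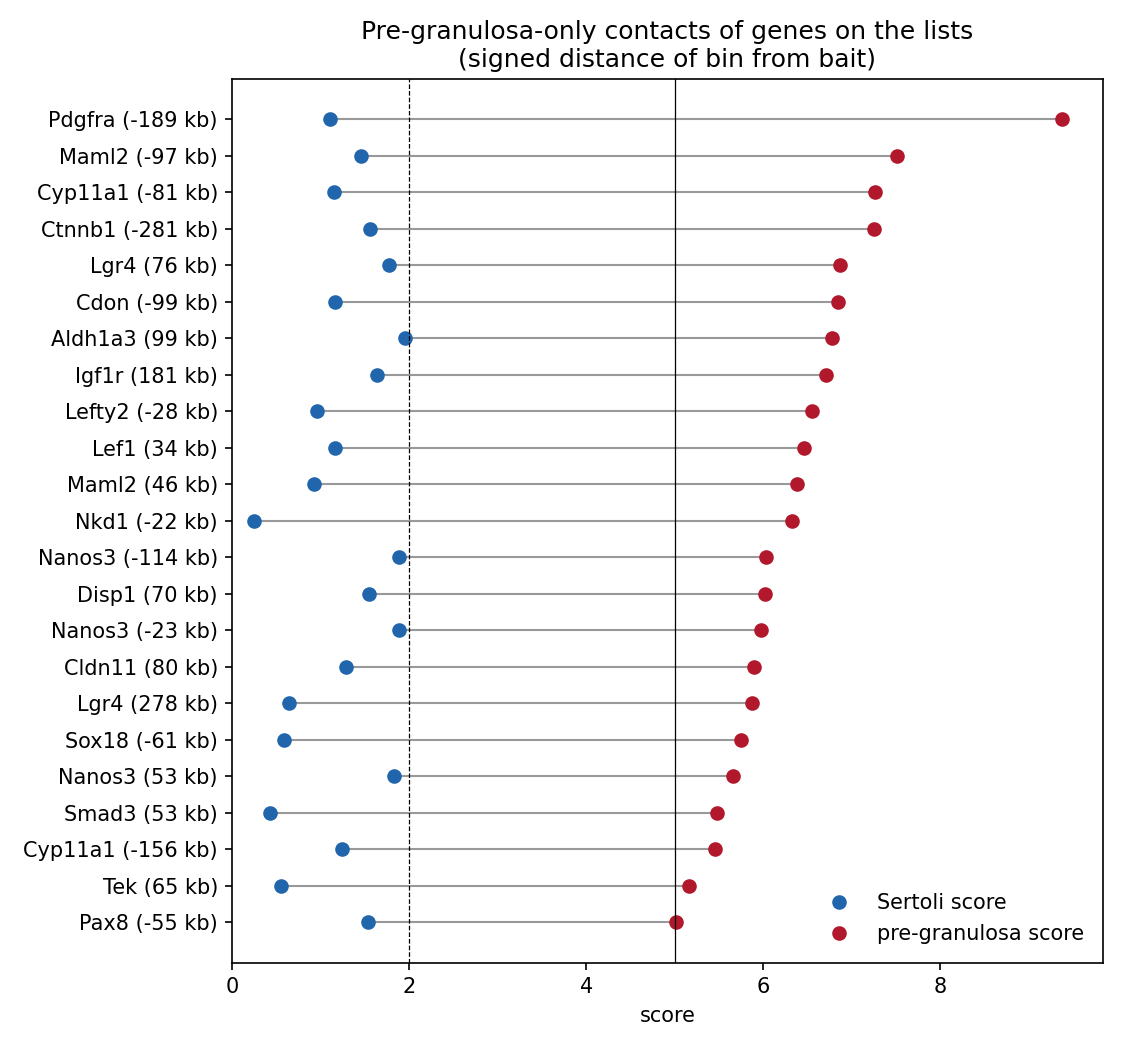
Pre-granulosa-only contacts of 18 listed genes, 23 in number, are drawn by their Sertoli score (blue) and pre-granulosa score (red) on the horizontal axis, without a unit, in order of the pre-granulosa score, with the signed distance from the bait in kb beside the gene. The dashed line marks the Sertoli limit of 2 and the solid line the threshold of 5. Pdgfra stands highest at 9.38 and Pax8 lowest at 5.01.

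Baits shared a bin in 25 of the 1321 bins, each a pre-granulosa-only contact of 2 baits, and the 5 with the highest summed scores are described. A bin on chromosome 7 (101676755 to 101681879) in Clpb, a mitochondrial chaperone gene, was contacted by Lrrc51, a leucine-rich repeat gene, with 10.1 and 0.316. Anapc15, a subunit of the anaphase-promoting complex, contacted the same bin with 7.29 and 0.517. It touched a Sertoli-called bin of both baits, and was itself a shared contact of Phox2a, with 7.88 and 10.2, and of a bait named for Folr1 and Anapc15, with 5.97 and 8.34. On chromosome 1 an intergenic bin (88296736 to 88302384) was contacted by Ugt1a1, a bilirubin-conjugating enzyme, with 6.87 and 1.96. Hjurp, a chaperone of centromeric histones, contacted it with 7.82 and 1.39. The bin was a shared contact of Mroh2a, with 6.51 and 6.10. With the original baits both contacts were listed at 0 in Sertoli cells, with 8.66 and 7.84 in pre-granulosa cells.

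On chromosome 6 a bin (129497687 to 129502795) over Olr1 was contacted by the C-type lectin genes Clec12b, with 8.36 and 1.74, and Clec9a, with 6.44 and 0.998. On chromosome 9 an intergenic bin (40035865 to 40041817) was contacted by the odorant receptor gene Olfr981, with 8.55 and 1.10. The bait shared by Olfr979 and Olfr980 contacted that bin with 6.44 and 1.72. On chromosome 5 an intergenic bin (124430492 to 124435592) was contacted by Gtf2h3, a subunit of the factor TFIIH, with 6.85 and 1.17. Rilpl1 contacted it with 7.84 and 1.46, but with 10.2 and 5.84 with the original bait, where it was called in both cell types. The partners in these pairs of baits are near neighbours on the chromosome.

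The contacts were spread over 574 windows of 1 Mb, and 63 windows held 5 or more. These 63 windows were dense in calls, with a median of 37 pre-granulosa calls against 7 over the 901 windows with such a call, and their 385 contacts made up 15.7% of 2446 pre-granulosa calls, beside 12.2% over all. The windows were chosen for their counts, so this share is a description. The most, 13, lay on chromosome 6 between 30080580 and 30985156, from baits that included the carboxypeptidase genes Cpa4 and Cpa5 and the centrosomal gene Cep41, and made up 28.9% of 45 pre-granulosa calls there. Cpa4 at 21.3 kb scored highest there, with 9.54 and 1.14. A contact of Cep41 at -148 kb scored 5.36 and 0.942, but 5.56 and 6.06 with the original bait. On chromosome 9 between 37225358 and 38004354 lay 12, of which 5 came from baits of Siae, a sialic acid esterase, and 5 from odorant receptor baits, among 45 pre-granulosa calls (26.7%). The Siae scores ran from 5.16 to 7.84 and the odorant receptor scores from 5.03 to 5.46. Some bins of both groups were called in Sertoli cells with another bait, such as at 6.30 with Esam and at 11.2 with Olfr876. On chromosome 5 between 65007246 and 65458420 lay 11, from Klhl5, Tmem156, Klb and Pds5a, among 28 pre-granulosa calls (39.3%). The Pds5a baits, for a regulator of cohesin, contacted bins at -195 and -240 kb with 7.23 and 7.41 against 0.172 and 0.543. On chromosome 7 between 141040046 and 141983277 lay 9, of which 3 came from baits of the mucin gene Muc2, among 67 pre-granulosa calls (13.4%, close to the 12.2% over all). Gm45717 and Rnh1, a ribonuclease inhibitor, scored highest there with 8.62 and 8.07. The Gm45717 bin was called in Sertoli cells with a bait of Ifitm1, at 9.58. The Rnh1 bin was called there with baits of Ifitm3 at 8.28, of Ifitm1 at 6.90 and of Rnh1 itself at 5.76. Bins of Muc2 were called in Sertoli cells with other Muc2 baits, at 7.38 and 12.1. A further window of chromosome 5, between 31097760 and 31497702, held 8 among 33 pre-granulosa calls (24.2%), and Zfp513 contacted there the bin with the start of the GTPase gene Gpn1, at 292 kb, with 5.94 and 1.62. That bin scored 5.85 in Sertoli cells with a bait of 4930548H24Rik.

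By chromosome the share of pre-granulosa calls that met the rule ran from 10.5% on chromosome 7 to 13.7% on chromosome 5. Odorant receptor genes (Olfr) had such a contact in 53 of 214 (24.8%), vomeronasal receptor genes (Vmn) in 12 of 51 (23.5%) and zinc finger genes named Zfp in 19 of 100 (19%). These shares lie near the 22.6% of all bait genes.

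The bins lay in genes about as often as those of the other contacts. The midpoint lay in the gene of the bait in 310 contacts (23.0%, 95% Wilson interval 20.9% to 25.4%), in another gene in 590 (43.8%) and between genes in 446 (33.1%). The shares were 20.8%, 49.0% and 30.2% for Sertoli-only and 31.1%, 38.1% and 30.8% for shared contacts. Where the strand and start of the bait gene were known, 390 of 786 bins (49.6%) lay upstream of the start. A RefSeq start lay in 57 bins (4.24%), against 3.83% and 4.57%. Among these, Igf2, whose contacted Nctc1 start is shown above, contacted its bin at -104 kb with 6.23 and 1.87. Arfgef2, whose contacted Gm31204 start is also shown, scored 6.26 and 1.43 at 77.6 kb, and 6.17 and 1.73 with the original bait. Chd2, a chromatin remodeller, contacted a bin with the start of the noncoding gene Chaserr at 21.1 kb with 7.03 and 1.501, but 5.78 and 5.20 with the original bait.

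MicroRNAs lay in 2 of the bins, and their mature sequences, from RefSeq on GRCm38.p6, are shown with the seed, bases 2 to 8, in capitals. Both arms of miR-130a lay in a bin contacted by Ctnnd1, which encodes a catenin of cell junctions, at 86.2 kb, with 5.28 and 1.58. Their positions are chr2:84741116-84741137 for the 3p arm and chr2:84741155-84741176 for the 5p arm, on the minus strand. miR-8093, at chr2:32687706-32687726 on the minus strand, lay in a bin contacted by St6galnac6, a sialyltransferase, at 91.7 kb, with 5.10 and 1.78. Both bins were also shared contacts of other baits. The miR-130a bin scored 5.195 and 9.88 with a bait named for Med19 and Tmx2 among others, and the miR-8093 bin 8.83 and 6.56 with a further bait of St6galnac6. All 3 seeds differ. A bin with a mature microRNA was held by 2 of the 1346 contacts (0.149%, 95% Wilson interval 0.0408% to 0.540%), by 23 of the 4331 Sertoli-only contacts (0.531%) and by 35 of the 6039 shared contacts (0.580%).
mmu-miR-130a-3p: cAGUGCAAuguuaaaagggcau
mmu-miR-130a-5p: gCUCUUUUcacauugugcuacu
mmu-miR-8093: uUGGGGAGcagagcaugagug

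Motifs were searched on both strands in the promoter windows that lay in baits, 831 windows for the pre-granulosa-only contacts and 4226 for all listed baits. A GATA motif, AGATAA, lay in 9.75% against 9.37%. A RUNX motif, TGTGGTT, lay in 5.17% against 4.73%, and a core motif of CTCF, 12 bases long, in 3.25% against 2.51%. A TCF/LEF motif, ATCAAAG, lay in 3.25% against 3.29%. A SOX motif, AACAATG, lay in 3.13% against 3.01%. A forkhead motif, TGTTTAC, lay in 3.13% against 2.91%, and the NR5A1 motif, CAAGGTCA, in 1.08% against 1.40%. Each motif was counted on its own, whether or not it overlapped another. For all these motifs the interval of the 831 windows held the share of all listed baits. Over all 18597 RefSeq windows the shares were 11.3% for GATA, 5.07% for RUNX, 2.44% for CTCF, 4.00% for TCF/LEF, 3.98% for SOX, 3.83% for forkhead and 1.56% for NR5A1. The DpnII site, GATC, lay in 44.4% of the 831 windows and 43.3% of those of all listed baits. The sequences of the contacted bins themselves were not analysed here.

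The table with the original baits gives a further view of the same libraries, with single restriction fragments as baits, and it is not independent. An overlapping bait was listed there for 1197 of the 1346 contacts (88.9%), and the contact itself for 679 (50.4%). There 642 reached 5 in pre-granulosa cells with a Sertoli score under 5 (47.7%, 95% Wilson interval 45.04% to 50.4%). The same rule with a Sertoli score under 2 held for 408 (30.3%), and 49 (3.64%) reached 5 in Sertoli cells. Of the Sertoli-only contacts 64.9% were found. The share rose with the pre-granulosa score that chose the contact, from 39.4% at 5 to 6 and 52.1% at 6 to 7 to 73.8% from 7. Rilpl1, 4930558K02Rik, Cep41 and Chd2 are named above among the contacts called in both cell types with the original baits. A contact that is not listed there has no score to compare, because a table lists only contacts that reached 5 in at least 1 cell type.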

How the data were processed

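Capture Hi-C contacts of Sertoli cells (3 libraries) and pre-granulosa cells (2 libraries) were taken from the tables the authors deposited. Their values are scores, named CHiCAGO scores in the table names. CHiCAGO scores a contact against a background that falls with distance. The authors deposited 1 score per contact and cell type, over 51777 contacts of the extended baits. Per the submitters' processing notes the build was mm10. Caller version, read filters and the way libraries were combined are not given in the sources used here. No listed contact had a higher score under 5.

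The members, the gene lists, the thresholds and the rule for named contacts were chosen with earlier results of these data known. Named were the 10 highest scores, the 5 longest contacts, the 5 largest runs, the 5 baits with most members, 5 bins of several baits, the 5 fullest windows of 1 Mb, the contacts of listed genes and those nearest the thresholds. Ties in size were ordered by the summed pre-granulosa score. Bins touched if under 10 bp separated them. Bins were placed by their midpoint in RefSeq genes of GRCm38.p6, where 1121 of 1147 bait genes matched by symbol. Distances are between midpoints. The deposited distance was used as given, in kb. Contacts matched the original baits by an overlap of at least 1 bp at both ends. Where several original contacts overlapped, the scores given are of the one with the highest pre-granulosa score. Its bin need not be the same as the bin of the extended table. Shares carry 95% Wilson intervals and medians 95% binomial order-statistic intervals, checked on simulated data. No test was run. Some named contacts are not reported here. Alternatives were other score limits, zeros included, the original baits, a longer minimum distance, merged bins and other overlap rules. Python 3.11.15, pandas 2.3.3, NumPy 2.4.6, SciPy 1.17.1 and Matplotlib 3.10.9 were used.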

Additional observations from a re-analysis of the deposited data

How the results depend on the processing

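The number of contacts, 1346, was 458 with a Sertoli score below 1, 2514 below 3, and 210 with a pre-granulosa score of at least 7. It was 1501 with zeros included, 1497 with the original baits and 1101 from 20 kb on, all within 1.5 times. The median distance of 61.5 kb became 89.3 kb below 1, 50.4 kb below 3, 76.6 kb at 7 or more, 70.95 kb with zeros and 57.3 kb with the original baits. The share at 100 kb or more, 32.0%, became 44.5%, 27.4%, 40.0% and 38.4% under the first 4 of these settings. The share touching another such bin, 2.90%, became 0.873% below 1 and 5.45% below 3, with touching counted only among the contacts of each setting. It was 0% among the 210 at 7 or more, which allows up to 1.80%, and 4.31% of the 1346 with a gap of 1 bin allowed. The share in genes, 66.9%, became 62.6% with the original baits and 59.9% with protein-coding genes only. The share found with the original baits, 47.7%, became 42.6% where at least 50% of the bin had to be covered and 50.4% where any listed score counted. The share of pre-granulosa calls beyond 300 kb, 11.5%, became 35.5% with zeros included, an alternative chosen after seeing the data. The cause of these moves was not tested, beyond the fewer or more contacts each setting admits by construction. No paired analysis was possible because each cell type has 1 score column and none per library, and for the same reason no library could be left out. Depth is unknown, so whether a low Sertoli score reflects fewer read pairs cannot be told from these scores.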

Other observations

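The rule leaves out contacts that are listed at a Sertoli score of 0, since a listed 0 can also stand for a value that is lacking. There were 155 of them, 1.40% of the pre-granulosa calls, in 154 bins. They lay far from their baits, at a median distance of 234.8 kb, and 93.5% lay at 100 kb or more, against 32.0% of the pre-granulosa-only contacts. In 29 of the bins a Sertoli call from another bait is listed, so those bins held a value for Sertoli cells.

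The highest score among them, 14.7 in pre-granulosa cells, belonged to a bait named for Olfml3 and Gm10964, 347 kb from its bin between genes on chromosome 3 (103388098 to 103393155). Lhx2, a LIM homeobox gene, contacted a bin 432 kb away with a score of 10.7. Nuf2, a kinetochore gene, contacted an intergenic bin 408 kb away with 10.7, and that bin was called in Sertoli cells with another bait. Tle3, a co-repressor that binds TCF and LEF factors, contacted a bin 521 kb away with 9.35. Tbx5, a T-box gene of the heart and forelimb, contacted an intergenic bin 228 kb away with 8.58. The baits of Cspp1, 4930558K02Rik and Cpa4 held a contact of this kind with scores of 13.3, 9.29 and 9.03 as well as pre-granulosa-only contacts. These genes were chosen after their values were seen.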
